A study of Mus musculus with 15 samples.

Results

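The genes examined here encode the nuclear-encoded subunits of the mitochondrial oxidative phosphorylation system and a few proteins named with them. Members were the array probes whose gene symbol begins with Nduf, Uqcr, Cox4i, Cox5, Cox6, Cox7, Cox8 or Atp5, or is one of the Sdh genes, Cyc1 or Cycs. This rule gave 114 of 25697 probes, for 90 genes. The rule used names and no measured values. A probe was kept for testing when its signal exceeded that of the negative controls (detection p under 0.01) on at least 5 of the 15 arrays, and 96 member probes for 80 genes were kept. Where a gene had several kept probes, the probe of highest mean level stood for the gene, and the others are described further on.

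Complex I (Nduf genes) and complex II (Sdh genes) pass electrons from NADH and succinate to ubiquinone. Complex III (Uqcr genes and Cyc1) passes them to cytochrome c (Cycs), and complex IV, cytochrome c oxidase (Cox genes), passes them to oxygen. Complex V, the ATP synthase (Atp5 genes), uses the resulting proton gradient to make ATP, and neurons depend heavily on this supply. Several complex IV subunits exist as a ubiquitous isoform and a second isoform found mainly in heart and skeletal muscle.

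RNA came from laser-microdissected hippocampal CA3 of newborn mice (P0) and was hybridised to Illumina bead arrays, 1 array per sample. The 5 wild-type (WT) arrays came from the CA3 layer of 5 mice. In mutants lacking doublecortin (Dcx KO), a microtubule-associated protein of migrating neurons, the CA3 pyramidal cells lie in separate layers, and the inner (internal) and the outer (external) layer of the same 5 animals were dissected as separate samples. Dissected material was pooled within a brain. The Dcx allele, the strain and the sex of the mice are not given in the sources used here. All levels are normalised log2 intensities, and errors are SD over 5 arrays unless stated otherwise.

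The 15 arrays each detected between 10718 and 12072 probes, and any 2 arrays correlated with Pearson's r between 0.936 and 0.993 over probes. Neither kept Dcx probe overlapped between genotypes, and the brighter one read 10.36 to 10.74 in the KO against 11.76 to 12.07 in WT. Whether those probes lie in the part of the gene that was removed is not known here. Of 6 CA3 field genes 4 were kept, with group medians of 8.12 in the inner layer, 8.16 in the outer layer and 7.80 in WT, and 9 of 10 pyramidal neuron genes were kept. Of 13 skeletal muscle genes 11 were kept, and their mean level ranged from 5.34 to 9.05 in the inner layer, from 5.29 to 5.86 in the outer layer and from 5.60 to 10.77 in WT. Of 10 bone and cartilage genes 8 were kept, with means of 5.27 to 10.34, 5.10 to 7.06 and 5.25 to 9.71 in the same order. Muscle or bone genes were high on inner arrays 1, 2 and 5, on outer array 1 (bone only) and on WT arrays 1, 2 and 3. In the authors' scaled scores, both arrays of KO animals 1 to 4 carry a shift of individual probes that the arrays of KO animal 5 and the WT arrays do not, and these 8 and 7 arrays are called shifted and unshifted below. The labels name no batch. Because all WT arrays are unshifted, and animal 5 is the only unshifted KO animal, the array set cannot be told apart from genotype for animals 1 to 4 or from the animal itself within the KO.

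Between the layers of the KO, 7 of 80 member genes were lower in the outer than in the inner layer and 0 were higher, at an adjusted p under 0.05 (limma with the animal as a block, Benjamini-Hochberg adjustment over all kept probes). Among all 8443 genes tested 20.9% were called, 11.4% lower and 9.53% higher, so the members' share was below that of genes in general. At an unadjusted p under 0.05, 16 members passed. The differences of the ubiquitous genes were small, between -0.26 and -0.37 on the log2 scale. Complex IV held 4 of the 7 genes, among 14 tested, and 2 of these 4 encode muscle isoforms (Cox6a2 and Cox7a1). Complex II held 0 of 3 and complex V 0 of 15. The count fell to between 1 and 4 when any 1 animal was left out (1 without animal 1), and the share of all genes called fell with it, to between 11.6% and 15.2%. After removal of arrays with high muscle or bone genes, which leaves animals 3 and 4, it was 0, with 5 at an unadjusted p under 0.05, and 3.64% of all genes were called. In those animals the differences were -0.28 for Ndufaf4, -0.41 for Ndufa3, -0.26 for Cox8a, -0.23 for Cox6a1 and -0.23 for Uqcrc1.

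**Figure D1:**
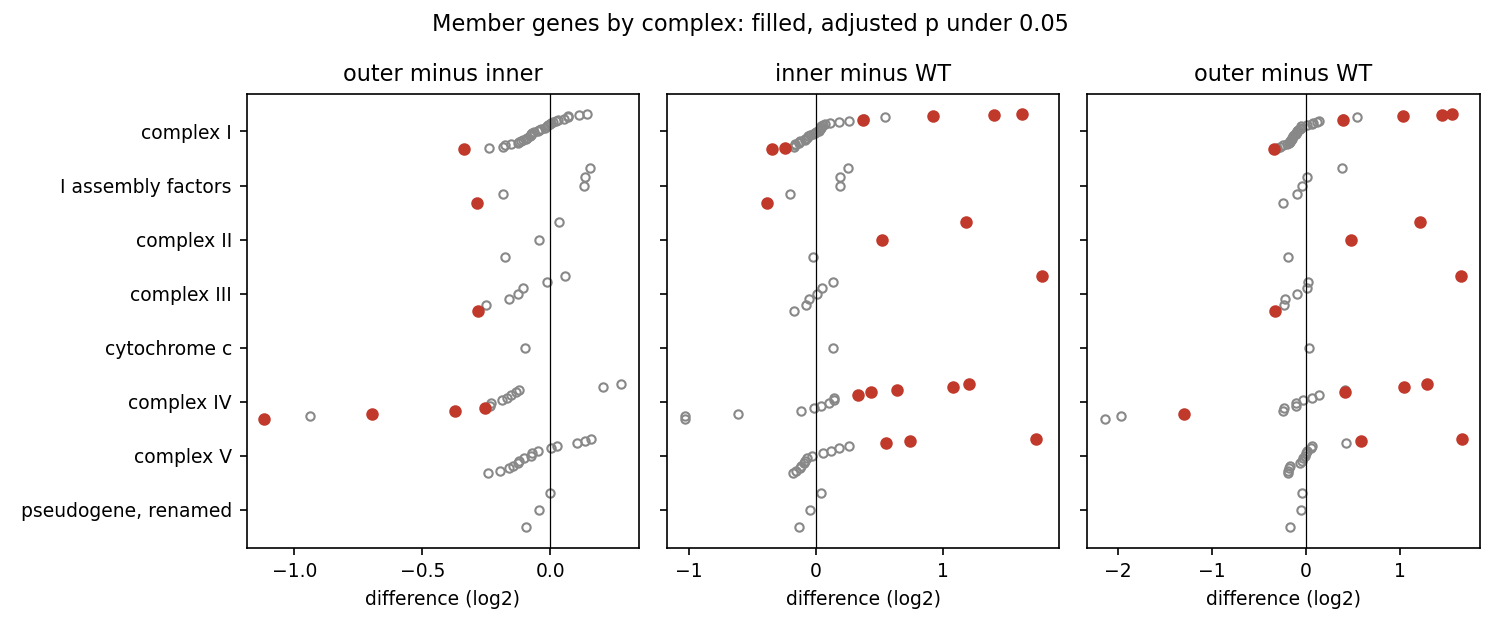
Difference in log2 level for the 80 kept member genes (points, 1 per gene), grouped by complex, for the outer minus inner, inner minus WT and outer minus WT comparisons, each panel with its own x axis. Filled points passed an adjusted p of 0.05: 7 genes lie below 0 in the outer minus inner panel, while most filled points in both WT panels lie above 0.

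Cox8a encodes the ubiquitous isoform of a small subunit of complex IV. In the inner layer its level was 12.59, 12.26, 12.19, 12.30 and 12.10 in animals 1 to 5, and in the outer layer it was 12.03, 11.82, 11.89, 12.08 and 11.74. The layers did not overlap, and every animal was lower in the outer layer. The difference was -0.37 (SE 0.08, adjusted p = 0.0162 by limma), a 1.30-fold lower level. The files annotate this probe to a predicted transcript similar to Cox8a, so a near-identical copy may contribute to its signal.

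Cox6a1 encodes the ubiquitous isoform of subunit VIa. Its inner values were 12.55, 12.58, 12.44, 12.50 and 12.52, and its outer values were 12.38, 12.15, 12.23, 12.25 and 12.30, again without overlap. It was lower in the outer layer by 0.26 on the log2 scale (difference -0.26, SE 0.07, adjusted p = 0.0459 by limma). Its other kept probe gave -0.25 (SE 0.08) and an adjusted p of 0.0543.

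Uqcrc1, a core protein of complex III, read 11.15, 11.27, 11.15, 11.08 and 11.31 in the inner layer and 10.82, 10.92, 10.94, 10.82 and 11.05 in the outer layer. Every outer value lay below every inner value, and the difference was -0.28 (SE 0.07, adjusted p = 0.0283 by limma). Its partner core protein Uqcrc2 differed by 0.059 (SE 0.09, adjusted p = 0.681).

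In complex I, the accessory subunit gene Ndufa3 read 11.73, 11.71, 11.66, 11.65 and 11.62 in the inner layer and 11.47, 11.19, 11.26, 11.23 and 11.54 in the outer layer. The layers did not overlap, and animal 5 had the smallest difference, -0.08, against -0.27 to -0.53 in the other animals. Ndufaf4, which encodes an assembly factor of complex I and not a subunit, read 9.52 to 9.76 in the inner and 9.15 to 9.50 in the outer layer, also without overlap. The differences were -0.34 (SE 0.09, adjusted p = 0.0312 by limma) for Ndufa3 and -0.29 (SE 0.07, adjusted p = 0.0279 by limma) for Ndufaf4.

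The remaining called genes, Cox6a2 and Cox7a1, encode muscle isoforms and are described with Cox8b below. Of the 7 genes, 6 were lower in the outer layer in all 5 animals. The exception was Cox6a2, which was higher by 0.30 in animal 4. Such agreement between animals, and the lack of overlap between layers, is favoured by the choice of genes called in these same animals. No share over all genes is given for either.

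**Figure D2:**
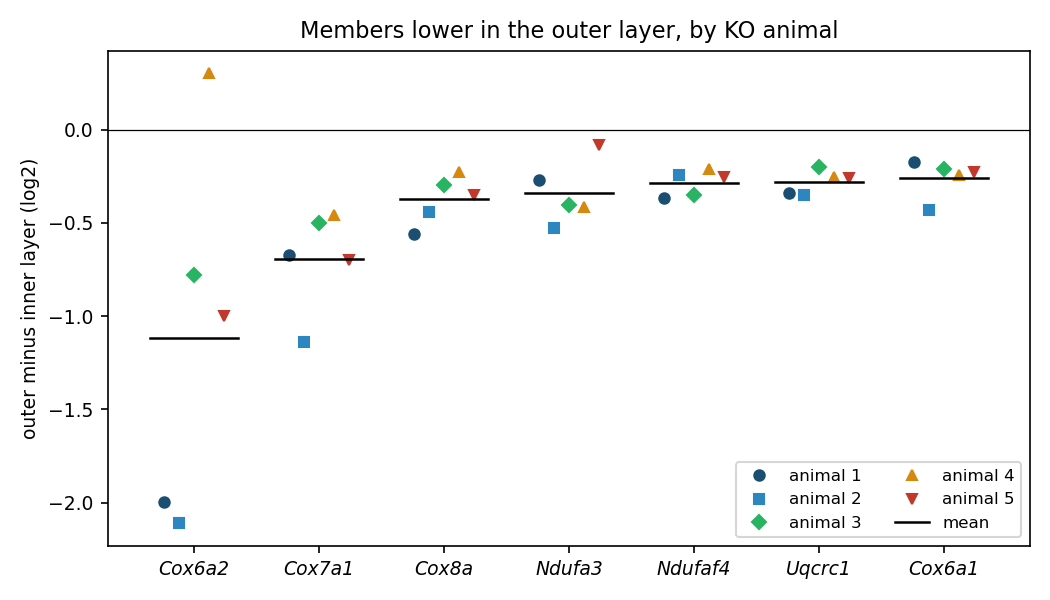
Outer minus inner difference (log2) in each of the 5 KO animals for the 7 member genes called lower in the outer layer; the bar is the mean. Cox6a2 spans -2.11 to 0.30, whereas Cox8a spans -0.56 to -0.23 and Uqcrc1 spans -0.35 to -0.20.

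The promoters of these genes were read for the motifs of nuclear respiratory factor 1 (NRF1) and of ETS factors, which are known to bind at many genes of the respiratory chain. Sequences are from RefSeq (GRCm38.p6) and cover the 250 bases before the annotated start. A promoter was given for 73 of the 90 members, and Cox6a2 was among those without one. The 4 shown are 2 called genes with an NRF1 match, a called gene of complex IV with none, and a muscle isoform. They are printed 5′ to 3′ in the direction of transcription, and capitals mark NRF1 matches (GCGCANGCG) and ETS matches (CCGGAAG) on either strand.
Cox6a1 (chr5:115348959-115349208, minus strand): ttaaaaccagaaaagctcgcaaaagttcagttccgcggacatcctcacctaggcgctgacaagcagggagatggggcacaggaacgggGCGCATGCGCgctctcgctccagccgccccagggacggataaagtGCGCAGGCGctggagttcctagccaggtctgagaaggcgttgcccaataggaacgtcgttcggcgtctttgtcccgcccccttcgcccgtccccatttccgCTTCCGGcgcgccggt
Ndufaf4 (chr4:24897833-24898082, plus strand): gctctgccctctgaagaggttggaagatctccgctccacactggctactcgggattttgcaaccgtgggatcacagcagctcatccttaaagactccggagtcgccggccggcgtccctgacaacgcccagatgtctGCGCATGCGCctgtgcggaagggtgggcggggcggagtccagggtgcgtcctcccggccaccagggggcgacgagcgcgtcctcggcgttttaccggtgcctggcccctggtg
Cox8a (chr19:7217617-7217866, minus strand): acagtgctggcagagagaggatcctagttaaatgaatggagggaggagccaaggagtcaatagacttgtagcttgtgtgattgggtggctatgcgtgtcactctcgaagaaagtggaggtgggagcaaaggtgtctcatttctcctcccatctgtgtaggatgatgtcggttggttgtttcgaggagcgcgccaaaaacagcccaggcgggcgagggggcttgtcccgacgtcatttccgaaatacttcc
Cox7a1 (chr7:30183921-30184170, plus strand): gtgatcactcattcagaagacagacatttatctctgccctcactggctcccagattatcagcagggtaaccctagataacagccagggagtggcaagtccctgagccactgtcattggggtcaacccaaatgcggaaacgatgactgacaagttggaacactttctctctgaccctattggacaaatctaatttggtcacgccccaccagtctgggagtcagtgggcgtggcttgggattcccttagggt
Cox6a1 held 3 NRF1 matches, 2 of them overlapping on opposite strands, and 1 ETS match. Ndufaf4 held 2 overlapping NRF1 matches, and Cox8a and Cox7a1 held neither motif. The NRF1 letters occurred in 13 of the 73 members (17.8%) and in 5.86% of all 27025 genes with a promoter of the same length. The ETS letters also occurred in 13 members (17.8%) and in 7.83% of all genes. The MEF2 motif, known from muscle genes, occurred in 0 of the 73 members and in 0.592% of all genes. These are matches of letters, with no measurement of binding. Of the other called genes with a promoter, Uqcrc1, Ndufa3, Cox8a and Cox7a1 held no NRF1 match.

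Across all 80 genes, the median outer minus inner difference was -0.086, against 0.026 for all 8443 genes. It was below 0 for 58 of the 80 members and for 45.8% of all genes. In animals 1 to 5 the median member difference was -0.14, -0.13, -0.080, -0.018 and -0.11, so it was smallest in animal 4. Median centring without background correction gave 0.043 for the members and 0.091 for all genes, so the sign of the members' median depended on the scaling. By complex the median was -0.056 for complex I (32 genes), -0.045 for complex II (3 genes), -0.13 for complex III (7 genes), -0.21 for complex IV (14 genes) and -0.077 for complex V (15 genes). Within complex IV it was -0.17 for the 11 ubiquitous genes and -0.94 for the 3 muscle isoforms. The 5 complex I assembly factors had a median of 0.13, with Ndufaf4 as the member called. In a bulk sample, fewer cells of a type and less RNA per cell cannot be told apart.

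Marker genes of several cell types differed between the layers as well. All 8 kept endothelial and mural genes, 5 of 5 oligodendrocyte lineage genes, 6 of 8 radial glia genes, 4 of 6 astrocyte genes, 4 of 6 GABAergic interneuron genes and 3 of 5 microglia genes were lower in the outer layer, and none of these lists held a higher gene. Of 9 pyramidal neuron genes 5 were lower and 2 higher, and of 5 newborn neuron genes 4 were higher and 1 lower. The mean of the radial glia genes was 7.86 to 8.19 on inner arrays and 7.36 to 7.59 on outer arrays. The part of these cell types in the members' differences was not tested.

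Compared with WT, 15 of 80 member genes were higher and 3 were lower in the inner layer (adjusted p under 0.05 by limma), where 29.3% of all genes were called, 13.7% higher and 15.7% lower. In the outer layer 12 were higher and 3 lower, where 15.1% of all genes were called, 8.33% higher and 6.81% lower. Both comparisons use the same 5 WT arrays. The member share in the inner layer, in either direction, was 18 of 80, below the share of all genes. In both layers the share of members called higher was above that of all genes. The share called lower was below it. Marker genes differed from WT in the inner layer as well. Of the kept genes, 6 of 9 pyramidal neuron genes were higher and 1 lower, 5 of 6 GABAergic interneuron genes were higher, 5 of 8 radial glia genes were higher and 1 lower, 4 of 6 astrocyte genes were higher and 1 lower, and 4 of 8 endothelial and mural genes were higher. Of 5 newborn neuron genes 1 was higher and 3 lower. Within the unshifted arrays, where animal 5 is the only KO animal, the median differences of these lists were 0.35, 0.68, 0.84, 0.59, 0.64 and -1.02 in the same order. In all 5 animals they were 0.61, 0.86, 0.88, 1.19, 0.52 and -0.98. The part of these cell types in the members' differences was not tested. The higher member genes came from every complex: 4 of complex I, 2 of complex II, 1 of complex III, 5 of complex IV and 3 of complex V in the inner layer. Several were raised more than 2-fold in the group means. Values of single arrays showed that most of this difference was carried by animals 1 to 4.

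Uqcrb, a subunit of complex III, read 9.70, 9.63, 9.69, 9.30 and 7.49 in the inner layer of animals 1 to 5 and 9.76, 9.41, 9.41, 9.43 and 7.17 in the outer layer. WT arrays read 7.42, 7.36, 7.08, 7.41 and 7.65. All 8 arrays of animals 1 to 4 lay above all WT arrays, and both arrays of animal 5 lay within the WT range. The group difference was 1.78 (SE 0.37, adjusted p = 0.00837 by limma) for inner minus WT and 1.65 (SE 0.41, adjusted p = 0.0288) for outer minus WT. The files annotate this probe to a predicted transcript similar to Uqcrb.

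Atp5a1 encodes the alpha subunit of the catalytic F1 part of ATP synthase. It read 8.86, 8.74, 8.51, 8.38 and 6.76 in the inner layer, 8.45, 8.60, 8.55, 8.82 and 6.47 in the outer layer, and 6.55, 6.50, 6.25, 6.59 and 6.70 in WT. Animals 1 to 4 were on average 2.11 (inner) and 2.09 (outer) above the WT mean, and animal 5 was near it. The differences were 1.73 (SE 0.33, adjusted p = 0.00632 by limma) and 1.66 (SE 0.38, adjusted p = 0.0252). The beta and gamma subunits of the same F1 part did not pass: Atp5b differed by -0.066 (SE 0.09) and Atp5c1 by -0.13 (SE 0.08) between inner layer and WT.

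Cox6c, a ubiquitous subunit of complex IV, read 12.07, 12.04, 11.91, 12.02 and 10.79 in the inner layer and 12.04, 11.87, 11.83, 11.78 and 10.45 in the outer layer, against 10.43 to 10.66 in WT. The low array in each layer was that of animal 5. Inner minus WT was 1.21 (SE 0.22, adjusted p = 0.00504 by limma), and outer minus WT was 1.04 (SE 0.26, adjusted p = 0.0282). Cox7a2, the ubiquitous isoform of subunit VIIa, showed the same order, with 7.10 to 7.64 in the inner layer of animals 1 to 4, 5.66 in animal 5 and 5.46 to 6.14 in WT.

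The complex I accessory subunit genes Ndufb9, Ndufb2 and Ndufb5 had inner minus WT differences of 1.63, 1.40 and 0.92 (adjusted p = 0.0113, 0.012 and 0.0178 by limma). Ndufb9 read 7.65, 7.38, 7.41, 7.18 and 5.39 in the inner layer and 4.96 to 5.68 in WT. In complex II, Sdhd, a membrane anchor subunit, read 5.92 to 6.26 in the inner layer of animals 1 to 4, 4.39 in animal 5 and 4.24 to 5.08 in WT, with a difference of 1.18 (SE 0.32, adjusted p = 0.0218). Sdhd was detected on 1 of 5 WT arrays, so its WT level is largely that of the background. For each of these 4 genes the inner array of animal 5 lay within the WT range.

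The smaller increases had less distance in log2 units between animal 5 and the other animals. Animal 5 was still the lowest inner array for each gene of this group. Cox7a2l encodes a factor that joins complexes III and IV into supercomplexes in the mouse. It read 10.70, 11.11, 10.91, 10.89 and 10.58 in the inner layer, 10.46, 10.76, 10.65, 10.81 and 10.35 in the outer layer and 10.34, 10.28, 10.16, 10.12 and 10.05 in WT. All 10 KO values lay above all WT values, animal 5 included, and the differences were 0.64 (SE 0.11, adjusted p = 0.00442 by limma) and 0.41 (SE 0.11, adjusted p = 0.0334). Sdhb, the iron-sulphur subunit of complex II, read 10.67, 10.67, 10.39, 10.54 and 10.07 in the inner layer and 9.83 to 10.02 in WT. Its difference was 0.52 (SE 0.12, adjusted p = 0.0113), and its other kept probe gave 0.41 (SE 0.13, adjusted p = 0.0326). Ndufs3, a core subunit of complex I, differed by 0.37 (SE 0.09, adjusted p = 0.0158) and Cox5a, a subunit of complex IV, by 0.33 (SE 0.10, adjusted p = 0.0293). From the WT mean, Ndufs3 differed by 0.44 in the inner layer of animals 1 to 4 and by 0.11 in animal 5, and Cox5a by 0.39 and 0.07. Atp5e, the epsilon subunit of the F1 part of ATP synthase, differed by 0.55 (SE 0.17, adjusted p = 0.0338). For Cox8a the inner layer was 0.44 above WT (SE 0.11, adjusted p = 0.0155), while the outer layer differed from WT by 0.064 (SE 0.10, adjusted p = 0.672).

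**Figure D3:**
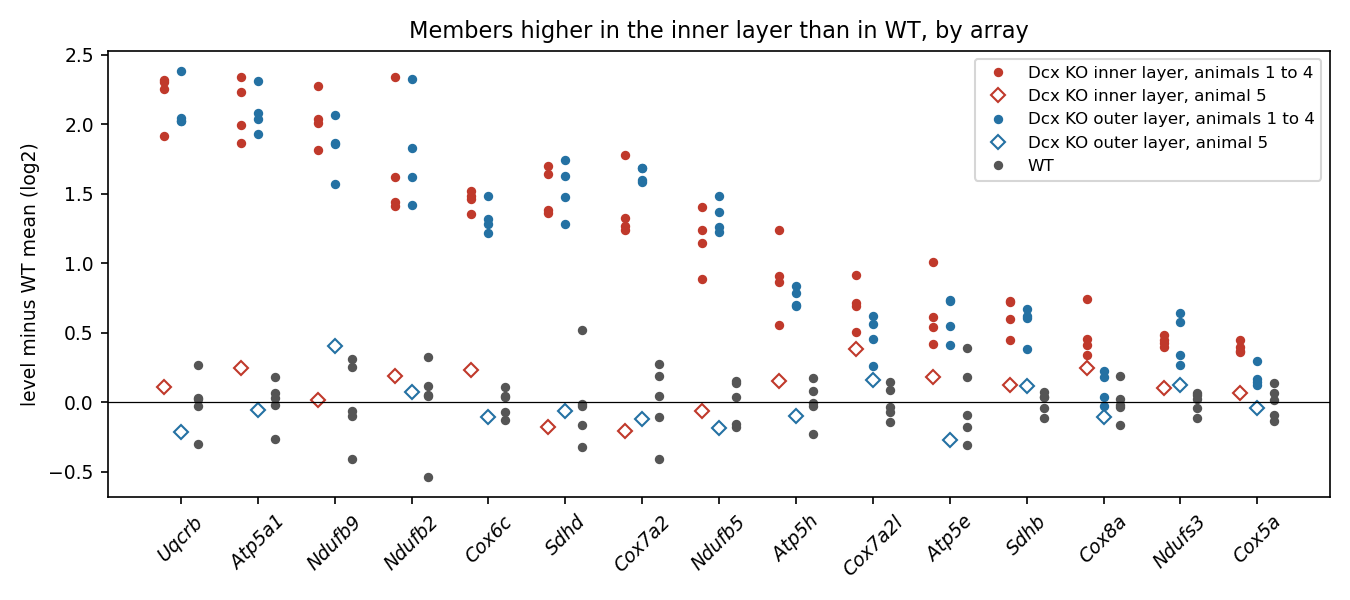
Level of each array minus the WT mean (log2) for the 15 member genes called higher in inner layer versus WT, ordered by that difference. Open diamonds are KO animal 5, filled points are KO animals 1 to 4 and WT: the diamonds lie near the WT points while animals 1 to 4 reach more than 2 log2 units above WT for Uqcrb and Atp5a1.

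Over the 15 genes higher in the inner layer, the median difference from WT was 1.17 for animals 1 to 4 and 0.13 for animal 5, and animal 5 lay within the WT range for 9 of them. Over the 12 genes higher in the outer layer it was 1.43 and -0.06, with animal 5 within the WT range for 7. For 12 of the 15 and 11 of the 12 genes, no shifted array overlapped any unshifted array. That separation is favoured by the choice of called genes, and it held for 52.1% and 70.8% of all genes called higher in these comparisons and for 12.4% of all genes tested. With the array set as a term in the fit, 0 members were called in the inner layer (2 at an unadjusted p under 0.05, limma) and 0 in the outer layer (3 at an unadjusted p under 0.05). Over all genes that fit called 0.0829% and 0.0118%. Its differences rest on KO animal 5 alone against 5 WT mice and equal those within the unshifted arrays, where limma called 0 members in each layer (3 and 4 at an unadjusted p under 0.05). With 1 KO animal, few calls could be made for any gene, and the absence of calls says little about the members.

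The array set itself was tested in 1 limma fit of all 15 arrays, with group and set as terms and animal as a random block. This test was added after the data were seen and rests on KO animal 5 against KO animals 1 to 4. Shifted arrays were higher for 12 of 80 member genes and lower for 0, where 9.82% of all genes were called and 8.66% were higher. The differences between sets were 2.21 for Uqcrb, 2.00 for Atp5a1, 1.73 for Ndufb9, 1.68 for Cox7a2, 1.64 for Sdhd and 1.62 for Ndufb2. They were 1.38 for Ndufb5, 1.33 for Cox6c, 1.19 for Ndufb4, 0.89 for Ndufb10, 0.80 for Atp5h and 0.47 for Sdhb. Ndufb4 and Ndufb10 were not called against WT in either layer. Atp5h encodes subunit d of the ATP synthase stalk.

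Genes lower than WT were few. Ndufa6, an accessory subunit of complex I, read 11.47, 11.52, 11.46, 11.30 and 11.72 in the inner layer, 11.52, 11.50, 11.37, 11.48 and 11.61 in the outer layer and 11.84, 11.90, 11.88, 11.74 and 11.82 in WT. No KO array reached the lowest WT array. The difference was -0.34 in each layer (adjusted p = 0.0209 for inner and 0.0256 for outer by limma). From the WT mean, animals 1 to 4 differed by -0.40 in the inner and -0.37 in the outer layer, and animal 5 by -0.11 and -0.23. Ndufa12, another accessory subunit, was 0.24 lower in the inner layer (difference -0.24, SE 0.08, adjusted p = 0.041). There, animals 1 to 4 differed from the WT mean by -0.28 and animal 5 by -0.08. For Ndufa6 and Ndufa12 all shifted arrays lay below all unshifted arrays, so these differences share the limit of the array set. Uqcr10, a small subunit of complex III, was lower in the outer layer, with a difference of -0.33 (SE 0.08, adjusted p = 0.0256) and, on its other kept probe, -0.28 (SE 0.08, adjusted p = 0.0376).

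The WT counts also moved with single arrays. Leaving out any 1 array gave between 13 and 20 member calls in the inner layer, where 19.3% to 38.6% of all genes were called. In the outer layer the count ranged from 0 to 28. It was 28 without animal 5, 7 without animal 1 and 0 without animal 2, 3 or 4. The share of all genes called moved in the same way, to 31.3% without animal 5, 8.97% without animal 1 and at most 0.237% without animal 2, 3 or 4. Without WT array 1, 2, 3 or 4 the members' count was 2, 1, 1 or 2, where 2.05% to 4.81% of all genes were called. After removal of arrays with high muscle or bone genes it was 11 in the inner layer and 0 in the outer layer, with 6 at an unadjusted p under 0.05 in the latter, and 15.9% and 0.0237% of all genes were called. Another scaling changed the split of directions: with quantile normalisation and no background correction the outer layer had 12 higher and 10 lower members, with median centring 9 higher and 0 lower, and with the authors' scaled scores 1 higher and 5 lower. Of all genes called in these fits, 50.5%, 93.5% and 71.6% were higher, against 55% in the main fit. Median centring moved the median of all genes in that comparison from -0.076 to 0.060.

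As a summary of level, the mean of the 69 kept members that are neither assembly factors, renamed genes nor muscle isoforms was taken on each array. It ranged from 10.69 to 10.998 in the inner layer (median 10.87), from 10.60 to 10.87 in the outer layer (median 10.81) and from 10.62 to 10.70 in WT (median 10.64). Animal 5 gave the lowest value in each layer, 10.69 and 10.60, both near the WT values. The means of animals 1 to 4 lay above all WT arrays in both layers. The median over all 80 genes did not separate them, at 11.18 to 11.40 in the inner layer, 11.21 to 11.31 in the outer layer and 11.02 to 11.25 in WT.

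Different probes of a gene gave a further view of the array sets. Of the members, 14 genes had more than 1 kept probe, 30 probes in all. Their probes disagreed on a call for 6 of these genes between inner layer and WT, 4 between outer layer and WT and 2 between the layers. Over all kept probes of all genes 28.6%, 15.5% and 19.8% were called in these comparisons.

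Ndufs4, an accessory subunit of complex I whose loss causes mitochondrial encephalopathy in mice, had 4 kept probes. Its brightest probe read 11.57, 11.65, 11.62, 11.58 and 11.74 in the inner layer, 11.70, 11.61, 11.63, 11.70 and 11.69 in the outer layer and 11.66, 11.54, 11.63, 11.48 and 11.65 in WT, so all groups overlapped. The dimmest of the 4 read 9.23, 9.16, 9.24, 8.80 and 7.35 in the inner layer, 9.57, 9.38, 9.25, 9.17 and 7.30 in the outer layer and 7.24, 7.45, 7.63, 7.65 and 7.59 in WT. Animals 1 to 4 stood above WT and animal 5 at or below the WT mean. Inner minus WT was 0.040 (SE 0.08, adjusted p = 0.726) for the brightest probe, and 1.24 (SE 0.32), 1.10 (SE 0.20) and 1.02 (SE 0.22) for the other 3, with adjusted p of 0.0175, 0.00489 and 0.0104 by limma. Outer minus WT was 0.071 for the brightest probe and 1.42, 1.11 and 1.06 for the others. Between the layers none of the 4 probes was called.

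**Figure D4:**
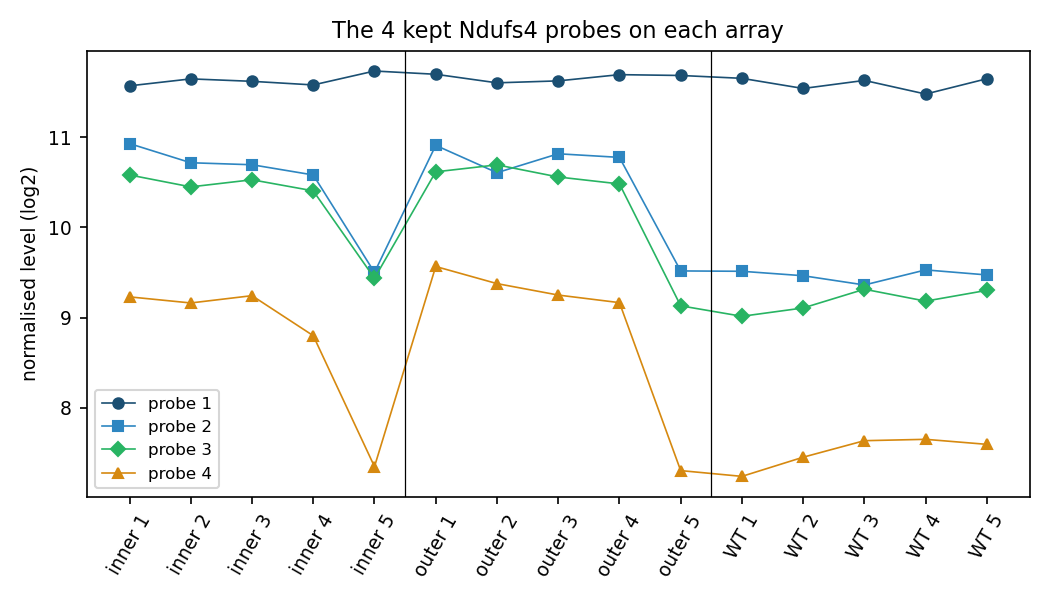
Normalised log2 level of the 4 kept Ndufs4 probes (lines) on each of the 15 arrays, with the groups parted by vertical lines; levels of different probes are not comparable. Probe 1 stays between 11.48 and 11.74, while probes 2 to 4 are high on inner and outer arrays of animals 1 to 4 and low on those of animal 5 and WT.

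Other genes showed the same split. Ndufaf5, which encodes an enzyme for complex I assembly, was lower than WT in the inner layer on its brightest probe, with a difference of -0.38 (SE 0.11, adjusted p = 0.0261), and higher on the other, with 1.01 (SE 0.29, adjusted p = 0.0251). On that other probe animals 1 to 4 read 5.55 to 6.15 in the inner layer, animal 5 read 4.45, and WT read 4.26 to 5.00, detected on 1 of 5 WT arrays, so that difference is also taken largely against background. Ndufa5 differed from WT by 0.022 on its brightest probe and by 0.89 (adjusted p = 0.0363) on the other. For Cycs, cytochrome c, the values were 0.13 and 0.81 (adjusted p = 0.55 and 0.0147). In WT the other Ndufa5 probe read 4.33 to 5.13 and the other Cycs probe 4.35 to 5.01, a range like that of the dim Ndufaf5 probe. Their differences from WT may therefore also be taken partly against background. Over all kept member probes, the shifted arrays were higher for 20 of 96 (20.8%) and lower for 0, where 9.36% of all kept probes were higher. Sdhb and Uqcr10 had 2 kept probes each that agreed in every call.

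A probe of Atp5j, which encodes coupling factor 6 of ATP synthase, was the only member probe called higher in the outer layer. It read 7.33, 7.76, 7.74, 7.53 and 7.78 in the inner layer and 7.61, 8.02, 7.93, 7.81 and 8.02 in the outer layer. It was higher in all 5 animals, by 0.25 (SE 0.07, adjusted p = 0.0388 by limma), although the layers overlapped. The brightest Atp5j probe differed by -0.077 (SE 0.10, adjusted p = 0.613).

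The muscle isoforms of complex IV were highest on WT array 1, as were the muscle genes. Cox6a2 read 6.85, 6.83, 5.34, 5.04 and 6.13 in the inner layer, 4.85, 4.72, 4.56, 5.34 and 5.13 in the outer layer and 9.39, 8.66, 7.10, 5.12 and 5.04 in WT. Its highest values were on WT arrays 1, 2 and 3 and inner arrays 1, 2 and 5, the arrays on which the muscle genes averaged above 7. Between the layers it differed by -1.12 (SE 0.33, adjusted p = 0.0485 by limma), and in animals 3 and 4 alone, whose arrays are low in muscle and bone genes, by -0.24 (adjusted p = 0.622). Its outer values of 4.72 and 4.56 lay in the range of the outer Cox8b values below, which were not well above background. The difference between the layers may therefore be taken partly against background.

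Cox7a1 read 6.46, 6.45, 6.24, 5.96 and 6.49 in the inner layer, 5.78, 5.31, 5.74, 5.50 and 5.80 in the outer layer and 8.04, 7.85, 6.52, 6.23 and 6.02 in WT. Here the layers did not overlap, and the difference was -0.70 (SE 0.11, adjusted p = 0.00607 by limma). In animals 3 and 4 alone it was -0.48 (adjusted p = 0.0907). Within the inner layer, arrays 2 and 3 read 6.45 and 6.24, where the muscle genes averaged 9.05 and 5.48. Against WT, the outer layer was lower, with a difference of -1.30 (SE 0.37, adjusted p = 0.0397). Cox7a1 was the member that passed when any 1 animal was left out.

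Cox8b was detected on 3 of 5 inner arrays, 3 of 5 WT arrays and 0 of 5 outer arrays. It read 6.15, 5.90, 4.32, 4.29 and 6.004 in the inner layer and 8.53, 7.96, 6.49, 4.25 and 4.59 in WT. Outer values of 4.17 to 4.82 were not well above background, so the inner layer was at least 1.31-fold higher (adjusted p = 0.0627) and WT at least 2.68-fold higher (adjusted p = 0.0854). These bounds set the bright group's mean against the higher of the lowest detected signal and the probe's own value on each outer array. The part of muscle tissue in the values of these 3 isoforms was not tested beyond the fits without those arrays.

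**Figure D5:**
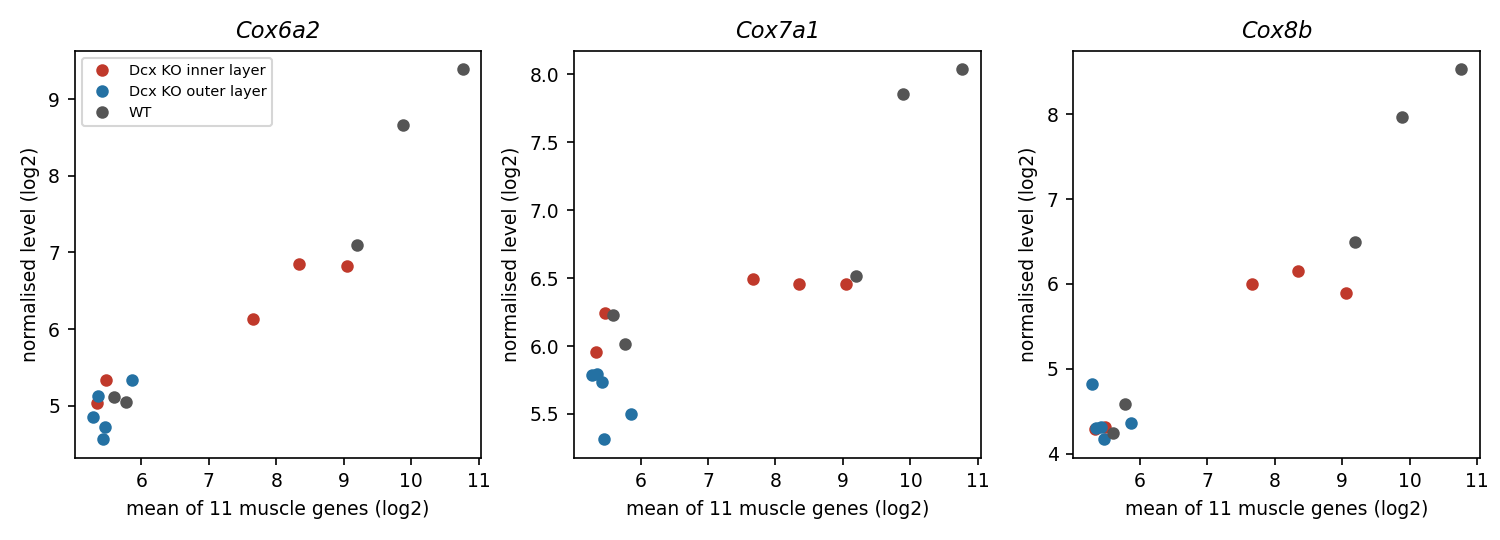
Level of Cox6a2, Cox7a1 and Cox8b (log2, y axes differ) against the mean of 11 skeletal muscle genes on the same array (log2). Points are the 15 arrays, coloured by group; the highest value of each gene is WT array 1, where the muscle mean was 10.77.

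Of the other subunits, Cox4i1, a large ubiquitous subunit of complex IV, was 12.45 ± 0.16 in the inner layer, 12.32 ± 0.11 in the outer layer and 12.35 ± 0.08 in WT (SD, n = 5 each), and passed in no comparison. Cox6b1 was 13.27 ± 0.07, 13.03 ± 0.19 and 13.28 ± 0.05 in the same order, with an adjusted p of 0.0703 between the layers by limma. Ndufa4, named for complex I but known as a complex IV subunit, was 13.05 ± 0.07, 12.97 ± 0.04 and 13.02 ± 0.05. Ndufc1 and Ndufc2, accessory subunits of complex I, differed by at most 0.07 in size on their brightest probes in any comparison. The isoform genes Cox4i2, Cox6b2 and Cox8c were not kept on any probe.

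A list of 19 central subunits, most of which carry redox centres or catalytic sites, had 16 kept. Of all genes tested, 11.4% were called lower in the outer than in the inner layer. In the inner and outer layer, 13.7% and 8.33% were called higher than WT. Of these 16 subunits, 1 was lower in the outer than in the inner layer (Uqcrc1) and 0 were higher. In the inner layer 4 were higher than WT (Ndufs3, Sdhb, Cox5a and Atp5a1), and in the outer layer 3 (Ndufs3, Sdhb and Atp5a1), with 0 lower in each. The differences of these subunits from WT share the limit of the array set. Among the others, Cyc1, the cytochrome of complex III, read 10.78 ± 0.11 in the inner layer, 10.53 ± 0.15 in the outer layer and 10.77 ± 0.19 in WT (SD, n = 5 each), and Ndufs8, an iron-sulphur subunit of complex I, read 10.87 ± 0.14, 10.63 ± 0.13 and 10.76 ± 0.13. Their outer minus inner differences of -0.25 and -0.24 had adjusted p of 0.059 and 0.063 by limma. Ndufv1 and Ndufv2, the flavoprotein subunits of complex I, differed from WT by -0.16 each in the inner layer (adjusted p = 0.157 and 0.187). Ndufs7 differed from WT by 0.18 (adjusted p = 0.117) and Cox5b by 0.041 (adjusted p = 0.755).

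Of the 90 member genes, 10 had no kept probe: Ndufab1, Ndufb11, Ndufs1, Uqcrfs1, Uqcrq, Cox4i2, Cox6b2, Cox7b2, Cox8c and Atp5k. Ndufs1 and Uqcrfs1 encode essential subunits of complexes I and III, and their probe levels stayed between 4.11 and 5.12 on all arrays, not well above background. No probe carried the symbol Sdha, and none measured a mitochondrially encoded transcript. Ndufs5-ps is a pseudogene by its present symbol, and the probes of Atp5sl and Atp5s carry the present symbols Dmac2 and Dmac2l, which are not subunits.

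Genes that feed or build the respiratory chain were read beside it. Of 16 genes of the TCA cycle and pyruvate dehydrogenase 14 were kept: 3 were lower in the outer than in the inner layer, and relative to WT 8 were higher in the inner and 3 in the outer layer, with 0 in the opposite direction. Suclg1, a subunit of succinyl-CoA ligase, differed by -0.39 (SE 0.09, adjusted p = 0.0206 by limma) between the layers, and Cs, citrate synthase, by 0.62 (SE 0.11, adjusted p = 0.00456) between inner layer and WT. Of 20 glycolytic genes 16 were kept, and 6 were lower in the outer than in the inner layer. Relative to WT, 8 were higher in the inner layer, with 2 higher and 2 lower in the outer one. Eno2, the neuronal enolase, differed by -0.86 (SE 0.07, adjusted p = 0.000508) and Aldoc, aldolase C, by -1.11 (SE 0.09, adjusted p = 0.000561) between the layers. In animals 3 and 4 alone, 3 glycolytic genes and 0 TCA genes were lower (5 and 2 at an unadjusted p under 0.05), with median differences of -0.24 and -0.20 against -0.28 and -0.19 in all 5 animals. With the array set as a term, neither list had a call against WT by limma (5 glycolytic genes and 1 TCA gene at an unadjusted p under 0.05 in the inner layer, 2 and 0 in the outer layer). In that fit, which rests on KO animal 5, the median inner minus WT difference was 0.34 for the glycolytic genes and 0.20 for the TCA genes, against 0.30 and 0.38 in all 5 animals.

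Of 37 assembly factors outside the Nduf names 30 were kept, with 2 higher and 0 lower in the outer than in the inner layer, and relative to WT 6 higher and 2 lower in the inner layer and 2 higher and 1 lower in the outer layer. Coa7, a complex IV assembly factor, was higher in the outer layer by 0.59 (SE 0.11, adjusted p = 0.0126 by limma). Of 18 regulators and mitochondrial carriers 14 were kept, with 3 lower and 0 higher between the layers, 4 higher and 4 lower in the inner layer, and 3 higher and 4 lower in the outer layer than in WT. Nrf1, the factor whose motif was read above, differed from WT by -0.62 (SE 0.13, adjusted p = 0.00979) in the inner and -0.52 (SE 0.13, adjusted p = 0.0288) in the outer layer. Slc25a3, the mitochondrial phosphate carrier, differed by 1.74 (SE 0.27, adjusted p = 0.00299) between inner layer and WT. These WT comparisons share the limit of the array set. With the set as a term, a fit that rests on KO animal 5, the median inner minus WT difference was 0.035 for the assembly factors. It was 0.0071 for the regulators and carriers, against -0.063 and 0.15 in the main fit. The part of the array set in the differences of Nrf1 and Slc25a3 was not tested.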

How the data were processed

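The authors deposited a table of normalised log2 intensities, a table of scaled scores and a value table of the same 15 bead arrays on the log2 scale; the submitters' processing notes name limma, and the steps between scan and table are not given in the sources used here. Per the file headers the tables give probes by array. The deposited score equals (log2 value minus the array's median) divided by its SD, plus, on 8 arrays, a shift per probe. Rows were joined on 15 equal values to 7 decimals. The deposited log2 values were returned to the linear scale and corrected with limma (version 3.58.1, R 4.3.3) neqc on 1114 control entries (10 bright ones set aside), with an offset of 16 and quantile normalisation. Probes detected (p under 0.01) on 5 or more arrays were kept: 12077 of 25697, for 8443 genes. The number of arrays limits precision, and so does the background for dim probes.

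Comparisons used lmFit and eBayes and the Benjamini-Hochberg method across every kept probe, with a threshold of 0.05. Outer minus inner had the animal as a block, since the submitters state that both layers come from the same animals; same-numbered layers correlated at r = 0.255 to 0.770 in their deviations. Inner and outer minus WT used 10 arrays each and no covariate. A replicate in each group is an animal.

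The members and gene lists were chosen with earlier results of these data known. Genes named are the up to 12 called with lowest adjusted p per comparison, listed isoforms and core subunits, genes whose probes disagree, and up to 4 of each other list. Ndufa12, Atp5e, Cox7b2, Ndufb4 and Ndufb10 were named after their values were seen. Scripts were tested on simulated data. Alternatives were the normalisation, the filter, the probe rule, the block, the array set, single arrays and arrays high in muscle or bone genes. Promoters came from RefSeq. A gene that the naming rule selects is not reported here.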

Additional observations from a re-analysis of the deposited data

Results flagged for a closer look

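Among 43 named genes in 3 groups (129 sets of 5 arrays), 17 sets held an array whose gap to the nearest other array exceeded the 95% critical share of the group's range. A rate of about 1 in 20 applies to independent sets of genes chosen without regard to their values. Many of these genes were chosen by their calls in these same arrays, and the layers share animals. The count can therefore not be set against that rate. Of the 17 flagged arrays, 15 were the low array of KO animal 5.

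In the inner layer, animal 5 lay below the other animals for 8 genes. It read 6.76 for Atp5a1, where the others read 8.38 to 8.86, and 10.79 for Cox6c, where they read 11.91 to 12.07. It read 5.66 for Cox7a2, 5.39 for Ndufb9, 4.39 for Sdhd and 7.49 for Uqcrb. For Cox5a and Ndufs3 the distance was smaller, at 12.31 against 12.60 to 12.69 and 10.77 against 11.06 to 11.15.

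In the outer layer, animal 5 was low for 7 genes. It read 6.47 for Atp5a1, 9.15 for Atp5h, 10.45 for Cox6c, 5.74 for Cox7a2, 6.40 for Ndufb5, 4.50 for Sdhd and 7.17 for Uqcrb. The part of the array set in these values cannot be told apart from that of animal 5 itself.

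In WT, array 1 was high for Cox5b, at 13.04 against 12.81 to 12.87, and array 5 was high for Uqcrc2, at 12.52 against 12.20 to 12.26. Both genes passed in none of the 3 comparisons.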

How the results depend on the processing

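The number of member genes called depended on the processing and on single animals. Between the layers it was 7. It became 16 (0 higher) with quantile normalisation and no background correction, and 0 with median centring and no background correction (3 at an unadjusted p under 0.05, limma). It was 18 (2 higher, 16 lower) with the authors' scaled scores, 11 over probes detected on every array, and 11 with the mean of all probes of a gene. It was 1 with no replicate block, 1 to 4 without any 1 replicate, 0 without arrays high in muscle or bone (5 at an unadjusted p) and 0 with the muscle level as a covariate (7 at an unadjusted p). The share of all genes called was 20.9% in the main fit. In the order given it was 26.1%, 1.21%, 18%, 27.4%, 23.6%, 8.36%, 11.6% to 15.2%, 3.64% and 3.9%. The median member difference became 0.043 with median centring. It kept its sign under the other alternatives run on log2 values. Between inner layer and WT the share of all genes called was 29.3%. It became 4.99% with median centring, 12.1% with the scaled scores, 15.9% without arrays high in muscle or bone, and 19.3% to 38.6% without any 1 array. The members' count of 18 became 5 (all higher), 8 (7 higher), 11 and 13 to 20 in the same order. It was 0 with the array set as a term, within the unshifted arrays, and with all arrays, the array set and animal as a random block (2, 3 and 2 at an unadjusted p). With the replicate block it was 14, with 20.5% of all genes called. The labels' numbers do not support that block for WT, because same-numbered KO and WT arrays correlated between -0.373 and 0.552. Between outer layer and WT the share of all genes called was 15.1%. It became 6.4% with median centring, 4.58% with the scaled scores, 3.91% with no filter on dim probes and 0.0474% with the replicate block. It was 0.0355% to 31.3% without any 1 array, and 0.0237% without arrays high in muscle or bone and with the muscle covariate alike. The members' count of 15 became 9 with median centring, 6 with the scaled scores, 7 with no filter on dim probes and 0 with the replicate block (24 at an unadjusted p). It was 0 to 28 without any 1 array. It was 0 without arrays high in muscle or bone, with the muscle covariate, with the array set as a term, within the unshifted arrays, and with all arrays and the array set (6, 15, 3, 4 and 2 at an unadjusted p). The median there became 0.069 with median centring and 0.018 with the muscle covariate, and that of inner minus WT became -0.0036 without WT array 5. Where arrays or terms were changed, the fits also had fewer arrays or degrees of freedom, and the cause of these changes was not tested.

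Called genes that changed sign did so mostly with the array set. With the set as a term and within the unshifted arrays alike, inner minus WT became -0.20 for Cox7a2, -0.065 for Ndufb5 and -0.17 for Sdhd, and outer minus WT became -0.052 for Atp5a1, -0.10 for Atp5h, -0.11 for Cox6c, -0.12 for Cox7a2, -0.18 for Ndufb5, -0.059 for Sdhd and -0.21 for Uqcrb. With all arrays, the array set and animal as a random block, inner minus WT was -0.26 for Cox7a2, -0.18 for Ndufb5 and -0.13 for Sdhd, and outer minus WT was -0.055 for Atp5h, -0.022 for Cox6c, -0.058 for Cox7a2, -0.068 for Ndufb5, -0.10 for Sdhd and -0.11 for Uqcrb. The mean of both Ndufaf5 probes gave 0.32 for inner minus WT. Of the other values for named genes, 1926 kept their direction or moved less than their spread on the same side of the threshold, 327 lost the call, 29 gained one and 38 moved. Dim probes near background limit what can be said of Cox6a2, Cox8b, Sdhd, the dimmer kept probes of Ndufaf5, Ndufa5 and Cycs, and the 10 genes not kept.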
